A study of Homo sapiens with 16 samples.

Results

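The translation initiation and elongation factors are the cytosolic proteins, named eIF1 to eIF6 and eEF in protein nomenclature, that bring a ribosome to the start codon of an mRNA and move it along the reading frame. The 48 genes described here were chosen by symbol, without the kinases that phosphorylate eIF2alpha, and all 48 were found among the 58051 genes of the count table. The RNA came from the prostate cancer line LNCaP at passage 20 and was sequenced in 16 libraries, and treated cells were set against the control cells of the same experiment. In the first experiment, 4 libraries came from cells given Allstar control siRNA (siCtrl) and 4 from cells given siRNA against XBP1 (siXBP1), each 2 days before the stress. In the other, 4 libraries came from cells kept 24 h in DMSO (Vehicle) and 4 from cells kept 24 h in 10 µM MKC8866, an inhibitor of the RNase activity of IRE1. Every library came from cells that last received thapsigargin, a blocker of the calcium pump of the endoplasmic reticulum (ER), at 30 nM for 3 h, so no group shows these genes without ER stress. Between 31920910 and 34509488 fragments were counted per siCtrl library, 28713607 and 32600081 per siXBP1 library, 28923919 and 34188950 per Vehicle library, and 29203993 and 34507788 per MKC8866 library.

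Translation of most mRNAs starts when eIF4E binds the cap, eIF4G and eIF4A unwind the leader, and the small ribosomal subunit, carrying eIF1, eIF1A, eIF3, eIF5 and the eIF2 complex with initiator tRNA, scans for a start codon. ER stress activates the kinase PERK, which phosphorylates eIF2alpha and so blocks eIF2B, the exchange factor that recharges eIF2 with GTP. A parallel branch of the stress response runs through IRE1, whose RNase splices XBP1 mRNA into the form that encodes the transcription factor XBP1s, an activator of genes for protein folding and secretion.

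Levels are given as FPKM, that is fragments per kilobase of merged exon, scaled to the TMM-adjusted size of the library. XBP1, the target of the siRNA, served as a check of the labels. Its level was 127, 139, 121 and 118 FPKM in the 4 siCtrl libraries and 16.9, 17.9, 17.9 and 17.6 in the 4 siXBP1 libraries. It was 161, 178, 159 and 166 FPKM with Vehicle and 193, 204, 189.999 and 177 with MKC8866. The siXBP1 libraries lay far below all others, whereas a count per gene holds the spliced and unspliced forms of XBP1 mRNA together. The product of that splicing can be followed through target genes, of which DNAJB9, an ER co-chaperone, was read at 80.3, 81.0, 73.9 and 84.6 FPKM in siCtrl and 15.05, 16.1, 16.9 and 16.4 in siXBP1. With Vehicle DNAJB9 was at 61.6, 65.4, 60.5 and 67.0 FPKM and with MKC8866 at 15.3, 18.2, 16.7 and 19.5. SERP1, a protein of the ER translocon, ranged from 54.1 to 59.7 FPKM in siCtrl, from 18.2 to 22.4 in siXBP1, from 64.3 to 69.3 with Vehicle and from 35.2 to 41.2 with MKC8866. For both targets the treated and control libraries did not overlap in either experiment.

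Markers of prostate luminal cells were present in every library, and 7 of them are given here. After knockdown KLK3, KLK2 and TMPRSS2, which encode secreted or membrane-bound proteases, fell from 138 to 147, 26.2 to 28.02 and 36.9 to 38.6 FPKM in siCtrl to 73.6 to 79.8, 14.7 to 16.6 and 19.4 to 20.7 in siXBP1. Their log2 fold changes were −0.86, −0.78 and −0.89 (adjusted p = 1.09e-13, 3.42e-12 and 4.60e-14), and that of the keratin KRT18 was −0.35 (adjusted p = 2.04e-06), while FOLH1, HOXB13 and KRT8 were not called. With MKC8866 KLK3 rose from between 130.4 and 146 to between 184 and 204 FPKM (log2 fold change 0.46, adjusted p = 2.75e-08) and KRT18 fell (−0.22, adjusted p = 0.00150), and with the replicate block FOLH1 and HOXB13 were also higher (0.06 and 0.09, adjusted p = 0.0234 and 0.0115). The part of such shifts in the results below was not tested. In bulk RNA, fewer cells of a kind and less RNA per cell cannot be told apart. Of the markers of other cell types, KRT5, TP63, COL1A2, DCN, PTPRC, CD3E and PECAM1 had at most 16 fragments in any library, and COL1A1 was the only one with more, the fibroblast markers summing to 2.52 to 3.72 FPKM. COL1A1 had log2 fold changes of 0.16 after knockdown (adjusted p = 0.0762) and −0.24 with MKC8866 (adjusted p = 0.0799, with the block 1.57e-04), and the responses differed by 0.40 (adjusted p = 0.00856).

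The RefSeq table of promoters (GRCh38.p14) holds 54 start sites for 40 of the 48 genes and none for the other 8. Many mRNAs of the translation machinery begin with a C and a run of pyrimidines, the 5′ terminal oligopyrimidine form through which mTORC1 and the protein LARP1 control their translation. A start at C followed by at least 4 pyrimidines was found for 11 of the 54 start sites, each of a different gene, and for 4.07% of all 35114 in the table. The 11 genes were EEF1A1, EEF1B2, EEF2, EIF2A, EIF2S3, EIF3D, EIF3F, EIF3K, EIF3M, EIF4A2 and EIF4B. The 7 of them whose mRNA passed the test in at least 1 of the fits are shown, from 10 bases before the start to 20 bases from it, as the starts of genes met again in the results. Their runs hold 5 to 16 pyrimidines and those of the other 4 hold 6 to 10, so the length of the run does not set the 7 apart. They lie at chr22:36529147-36529176 (EIF3D, minus strand), chr3:150546777-150546806 (EIF2A, plus strand), chr11:32583821-32583850 (EIF3M, plus strand), chr19:38619178-38619207 (EIF3K, plus strand), chr12:53006446-53006475 (EIF4B, plus strand), chr6:73521013-73521042 (EEF1A1, minus strand) and chr2:206159885-206159914 (EEF1B2, plus strand). Capitals mark the run of pyrimidines that begins at the start site, read 5′ to 3′ on the strand of the gene.
EIF3D: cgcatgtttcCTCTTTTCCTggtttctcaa
EIF2A: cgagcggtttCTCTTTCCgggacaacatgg
EIF3M: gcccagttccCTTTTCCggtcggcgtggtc
EIF3K: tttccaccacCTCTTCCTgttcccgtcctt
EIF4B: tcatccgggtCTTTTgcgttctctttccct
EEF1A1: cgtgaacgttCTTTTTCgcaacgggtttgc
EEF1B2: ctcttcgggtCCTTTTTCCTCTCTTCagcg

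From 250 bases before to 50 bases after the start, 4 short motifs were searched on both strands. CCACGT, the core of the sites bound by XBP1s and ATF6, occurred in 13 of the 54 windows and in 9.72% of all windows in the table. CACGTG, the E-box, which shares 5 letters with CCACGT so that their matches can overlap, occurred in 11 of the 54 and in 7.26% of all windows. Each CCACGT match of EEF2K, EIF1B, EIF3F, EIF3K, EIF4E, EIF4G1, EIF4H and EIF5A2 overlapped an E-box match, so these counts share sites. Neither TGACGTGG, a longer XBP1s and ATF6 site, nor TGATGCAA, a CHOP and ATF4 composite site, occurred in any of the 54, against 0.729% and 0.866% of all windows. A match is a description of the letters and not a bound site, and the absence of these letters says nothing of the factor.

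The levels of the factors in siCtrl spanned a wide range, and 8 of the 47 counted genes had at least 100 FPKM while 5 had under 5. EEF2, the elongation factor that moves the ribosome by 1 codon, had the highest mean level, 1249 FPKM, followed by EEF1A1, which delivers tRNAs, with 496, and EIF3I, a subunit of eIF3, with 278. At the low end were EIF4A1 with 1.098 FPKM, EIF5A2, a tissue-restricted form of eIF5A, with 1.54, EIF3C with 2.88 and the cap-binding EIF4E with 3.56. Such an order depends on the length used, since the merged exons of EIF4E span 14067 bases but its main transcript 2427, and over the main transcript its level would be 20.7 FPKM. It depends on copies as well, since EEF1A1P5 held 5481 CPM against 2830 for EEF1A1, so the order of EEF2 and EEF1A1 is not settled by these values, nor is the low level of EIF3C, whose copy EIF3CL held 7.62 CPM against 19.2.

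The median of the levels was 40.3 FPKM in siCtrl. One gene, EEF1G, a scaffold subunit of the elongation factor complex, had 0 fragments in every library. All but 2 of its 2716 exon bases are covered by a readthrough gene, and fragments that overlap 2 genes were not counted, so the zero says nothing of its expression. EIF4A1, the main RNA helicase of cap-dependent initiation, was affected in the same way, since none of the 1757 bases of its main transcript was free of other genes and its 123 to 214 fragments per library came from 2733 bases outside that transcript. EIF3L was the only other factor with less than 50% of its main transcript free, 41.5%, and 34 of the 48 had at least 95%.

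**Figure D1:**
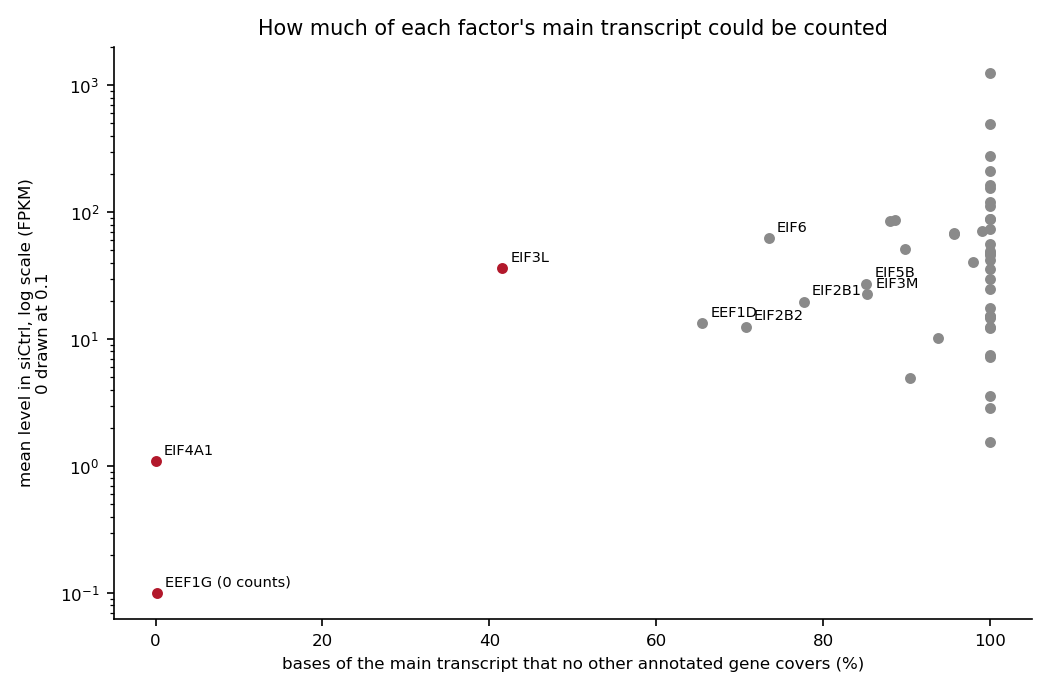
Percent of the bases of each factor's main transcript that no other annotated gene covers (horizontal axis) against the mean level in the 4 siCtrl libraries (vertical axis, log scale, FPKM) for each gene. The 3 red points with under 50%, EEF1G, EIF4A1 and EIF3L, are those whose mRNA was hardly or only partly counted.

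After XBP1 knockdown, 15 of the 47 counted factors were lower and 6 were higher at an adjusted p under 0.05, while 34.8% of all 21021 genes tested were called, 18.2% as lower and 16.5% as higher. The factors are well expressed, and among genes of at least 5 CPM (counts scaled to library size, without gene length) 50.9% were called, so that the share of 44.7% for the factors lay between these 2 backgrounds and is not a result about them. Their median log2 fold change was −0.06, against 0.00 over all genes tested, and the median size of the log2 fold change was 0.121, against 0.201 over all genes tested and 0.151 over those of at least 5 CPM. In 13 factors the 4 siXBP1 libraries all lay below the 4 siCtrl libraries and in 7 they all lay above, against 17.2% and 15.5% of all genes. Of the 21 calls, 14 were kept in every one of 14 alternative analyses and 7 were lost in at least 1. Calls per complex ran from 5 of 5 genes of start codon selection and subunit joining to 0 of 3 genes of eIF5A and eIF6. These groups are small, and no complex was tested against the others or against all genes. Counts per complex given below are descriptions, to be read beside the shares of all genes.

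**Figure D2:**
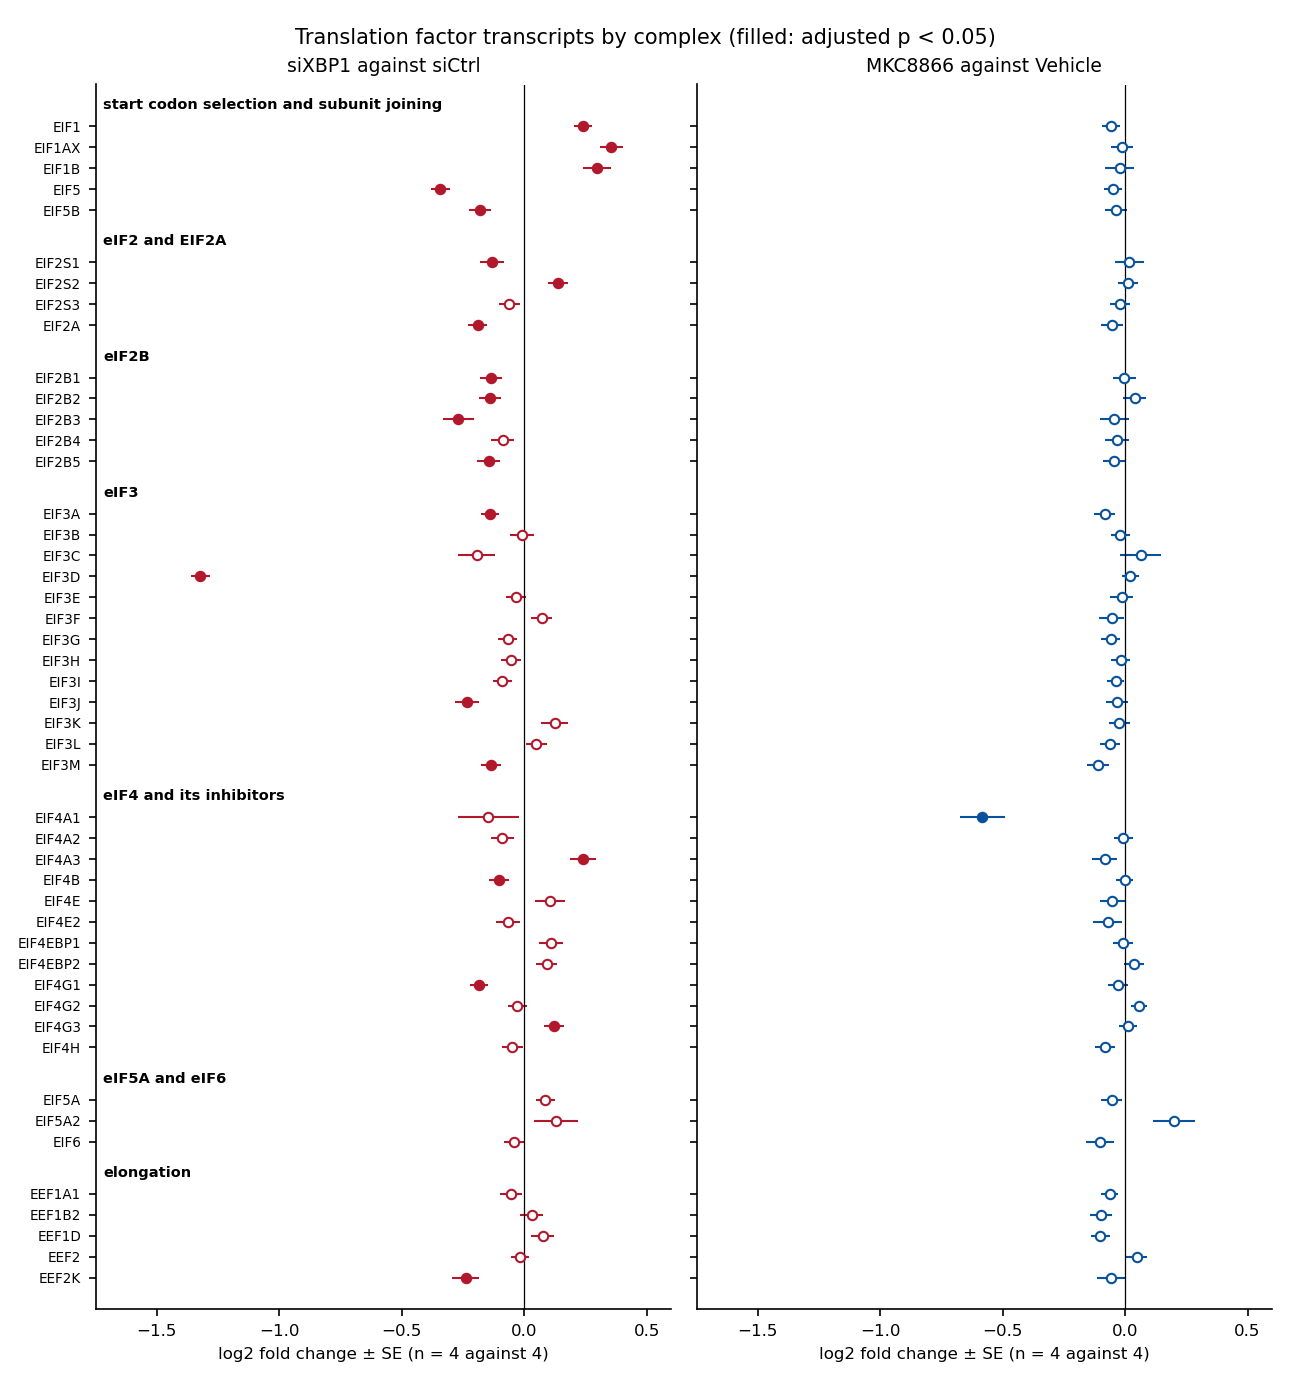
Log2 fold change (horizontal axis, points) with its standard error (bars) for the 47 counted factors, grouped by complex, after siXBP1 (left) and with MKC8866 (right), 4 libraries against 4. Filled points have an adjusted p under 0.05, 21 on the left and 1 on the right, and EIF3D at −1.32 stands apart from all others.

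The factors that choose the start codon and join the ribosomal subunits changed in both directions. EIF1 and its close paralogue EIF1B keep the scanning ribosome open and guard against wrong start codons. EIF1 was read at 166, 156, 165 and 165 FPKM in siCtrl and at 187, 192, 199 and 191 in siXBP1, against 185, 171, 173 and 178 with Vehicle and 171, 169, 176 and 162 with MKC8866. All siXBP1 libraries were above all siCtrl libraries, and the siCtrl libraries were the lowest of the 4 groups apart from 1 of MKC8866. The log2 fold change after knockdown was 0.24 (standard error, SE, 0.0376; adjusted p = 2.49e-05). EIF1B was read at 15.6, 14.9, 13.9 and 15.9 FPKM in siCtrl and at 17.7, 19.8, 18.2 and 18.5 in siXBP1, again without overlap, with a log2 fold change of 0.30 (SE 0.0556, adjusted p = 1.92e-04). In the inhibitor experiment EIF1B was at 19.3, 17.9, 16.4 and 18.7 FPKM with Vehicle and at 17.3, 18.9, 16.5 and 18.4 with MKC8866, and these groups overlapped. The siCtrl libraries of EIF1B lay below all others.

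EIF1AX encodes eIF1A, the partner of eIF1 on the scanning subunit. Its level was 14.5, 14.6, 14.9 and 14.9 FPKM in siCtrl and 17.7, 18.4, 20.4 and 18.7 in siXBP1. It was 17.04, 18.5, 16.5 and 17.7 FPKM with Vehicle and 16.6, 17.9, 17.04 and 17.5 with MKC8866. The siXBP1 libraries lay above the siCtrl libraries and partly within the range of Vehicle, and the log2 fold change was 0.35 (SE 0.0470, adjusted p = 2.70e-06). EIF1AXP1, a copy of this gene chosen after its values were seen, had a log2 fold change of 0.37 (adjusted p = 6.35e-05), and fragments of near-identical copies may be assigned to either.

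EIF5 and EIF5B went the other way. EIF5 stimulates GTP hydrolysis by eIF2 once the start codon is paired, and its level was 50.2, 49.0, 49.4 and 50.8 FPKM in siCtrl and 38.42, 38.88, 41.05 and 38.88 in siXBP1. With Vehicle it was 56.2, 59.1, 54.9 and 56.8 FPKM, and with MKC8866 it was 53.4, 56.0, 54.5 and 55.0. The siXBP1 libraries were below those of every other group. The log2 fold change was −0.34 (SE 0.0373, adjusted p = 1.63e-07). EIF5B, the GTPase that joins the large subunit, ranged from 26.5 to 28.3 FPKM in siCtrl and from 22.3 to 25.9 in siXBP1 (log2 fold change −0.18, SE 0.0440, adjusted p = 0.00255). All 5 calls of this group were kept in each of the 14 alternatives.

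**Figure D3:**
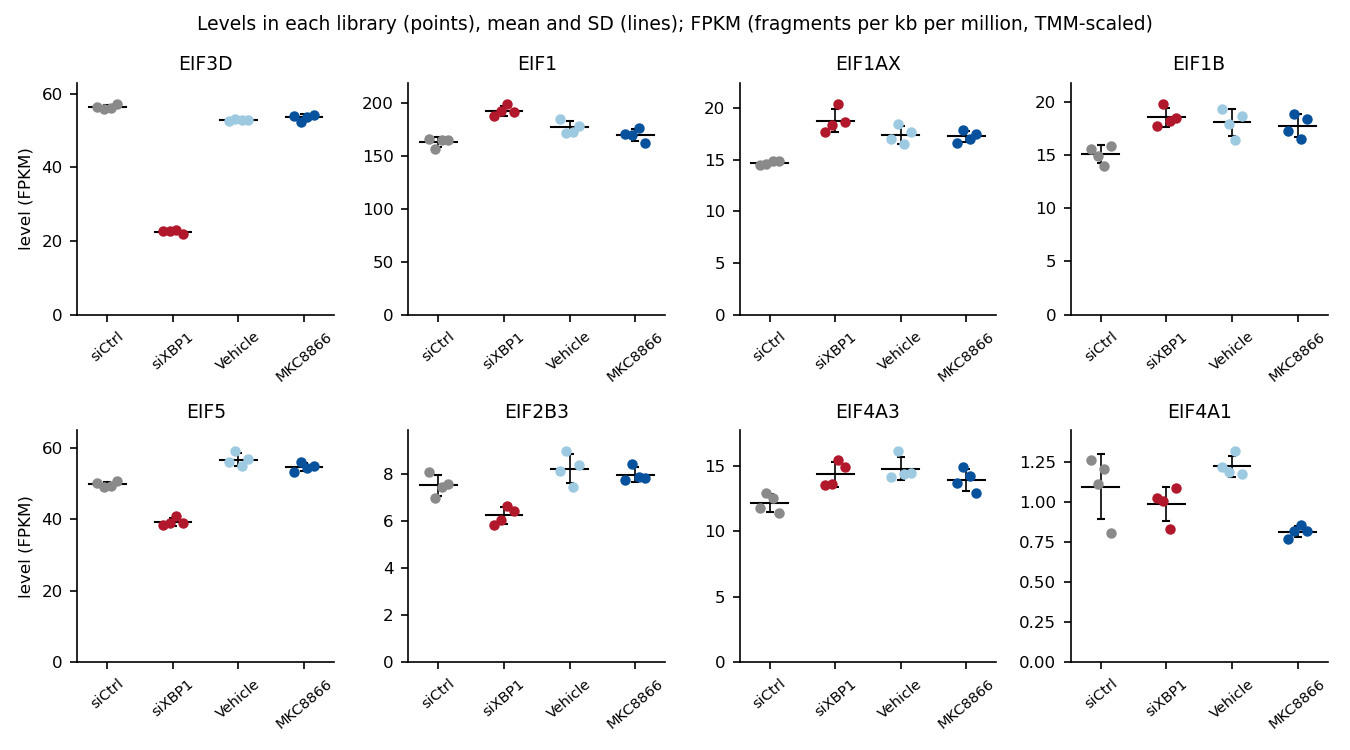
Level in each library (points, vertical axis from 0, FPKM) with the mean (long line) and SD (bar with caps) of 4 libraries per group, for 8 factors. EIF3D, EIF5 and EIF2B3 lie lower in siXBP1 than in siCtrl, EIF1, EIF1AX, EIF1B and EIF4A3 lie higher, and EIF4A1 lies lower with MKC8866 than with Vehicle.

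Of the eIF2 complex, which carries the initiator tRNA, the beta subunit gene EIF2S2 rose and the alpha subunit gene EIF2S1 fell after knockdown, while the gamma subunit gene EIF2S3 was not called (log2 fold change −0.06, adjusted p = 0.306). EIF2S2 ranged from 82.4 to 91.8 FPKM in siCtrl and from 94.7 to 99.4 in siXBP1 (log2 fold change 0.14, SE 0.0404, adjusted p = 0.0104), with the reserve that its copies held 55.6% of its own CPM. EIF2S1, which holds the residue that PERK phosphorylates, ranged from 42.0 to 48.8 FPKM in siCtrl and from 38.2 to 42.9 in siXBP1, and these ranges overlapped. Its log2 fold change of −0.13 (adjusted p = 0.0424) lay close to the threshold: the call was lost without siCtrl replicate 2 or 4 and without siXBP1 replicate 1, 2, 3 or 4, and in 4 other alternatives (adjusted p from 0.0507 to 0.210), with log2 fold changes from −0.14 to −0.09. EIF2A, a monomeric factor that can bring initiator tRNA to some mRNAs independently of eIF2, was read at 42.0, 39.8, 38.3 and 41.2 FPKM in siCtrl and at 36.1, 35.2, 34.9 and 35.1 in siXBP1. In the inhibitor experiment it was at 37.2, 40.1, 36.2 and 38.92 FPKM with Vehicle and at 35.02, 38.2, 35.4 and 38.0 with MKC8866. Only the knockdown groups were apart, with a log2 fold change of −0.19 (SE 0.0400, adjusted p = 6.19e-04). EIF2A lies next to SERP1 on the other strand and shares 153 exon bases with it, 3.70% of its own, and fragments touching both were not counted.

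The exchange factor eIF2B has 5 subunits, and 4 of its 5 genes fell after knockdown, EIF2B1, EIF2B2, EIF2B3 and EIF2B5, with 0 higher. Of all genes tested, 18.2% were called lower, and of those of at least 5 CPM 50.9% were called in either direction. The difference of eIF2B from these shares was not tested. EIF2B3, the gamma subunit, had the largest change. It was read at 8.07, 6.96, 7.42 and 7.55 FPKM in siCtrl and at 5.83, 6.01, 6.61 and 6.43 in siXBP1, and at 8.09, 8.94, 7.43 and 8.36 with Vehicle and 7.73, 8.42, 7.84 and 7.82 with MKC8866. The siXBP1 libraries were the lowest of all, without overlap, and the log2 fold change was −0.27 (SE 0.0623, adjusted p = 0.00158). EIF2B5, the catalytic epsilon subunit, was read at 15.7, 14.7, 15.7 and 14.7 FPKM in siCtrl and at 13.3, 13.7, 14.6 and 13.4 in siXBP1. With Vehicle EIF2B5 was at 15.1, 15.5, 15.9 and 14.6 FPKM and with MKC8866 at 15.1, 15.6, 13.8 and 14.8. The knockdown groups of EIF2B5 nearly touched and those of the inhibitor overlapped.

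Among the other subunits, EIF2B1 and EIF2B2 had log2 fold changes of −0.14 and −0.14 (adjusted p = 0.0196 and 0.0174), EIF2B5 had −0.15 (adjusted p = 0.0143) and EIF2B4 was not called (−0.09, adjusted p = 0.154). The call of EIF2B1 was lost without siCtrl replicate 1, siXBP1 replicate 1 or siXBP1 replicate 4 (adjusted p from 0.0596 to 0.0897). For EIF2B2 it was lost without siCtrl replicate 2 or 4 or siXBP1 replicate 2 or 3 (0.0553 to 0.0792), and for EIF2B5 without siCtrl replicate 3 or siXBP1 replicate 1 or 4 (0.0530 to 0.0632). All 5 subunits kept a negative log2 fold change in each alternative.

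The large scaffold complex eIF3 has 13 subunit genes, and the biggest change of any factor was in 1 of them. EIF3D (ENSG00000100353, chr22:36510850-36529436, minus strand of GRCh38) encodes the subunit that can itself bind the cap of certain mRNAs. Its level was 56.3, 55.7, 56.2 and 57.1 FPKM in siCtrl and 22.7, 22.7, 22.9 and 21.9 in siXBP1. With Vehicle it was 52.5, 53.0, 52.8 and 52.9 FPKM and with MKC8866 it was 54.0, 52.4, 53.8 and 54.0. The siXBP1 libraries lay far below all 12 others, with almost no spread within groups, whereas the MKC8866 libraries overlapped their controls. The log2 fold change was −1.32 after knockdown (SE 0.0380, adjusted p = 3.74e-17), a change of −60.0%, and 0.02 with MKC8866 (SE 0.0359, adjusted p = 0.854). By p value EIF3D ranked 19 among all genes of the knockdown comparison, in which XBP1 itself ranked 1. Across alternatives the knockdown value stayed between −1.33 and −1.30.

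Within each library, EIF3D was the subunit with rank 4 of 13 by level in all siCtrl, Vehicle and MKC8866 libraries and with rank 10 in all siXBP1 libraries. The median level of the other 12 subunits was between 38.6 and 40.6 FPKM in siCtrl and between 38.0 and 43.4 in siXBP1, so the shift was that of EIF3D against its partners. Each of its 4070 exon bases was free of other genes, and the count per library ran from 2673 to 7938. Of the genes with a test within 100 kb of EIF3D, looked up after its values were seen, the 2 well-counted ones, TXN2 and FOXRED2, had log2 fold changes of 0.00 (adjusted p = 0.9996) and −0.11 (adjusted p = 0.0760).

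**Figure D4:**
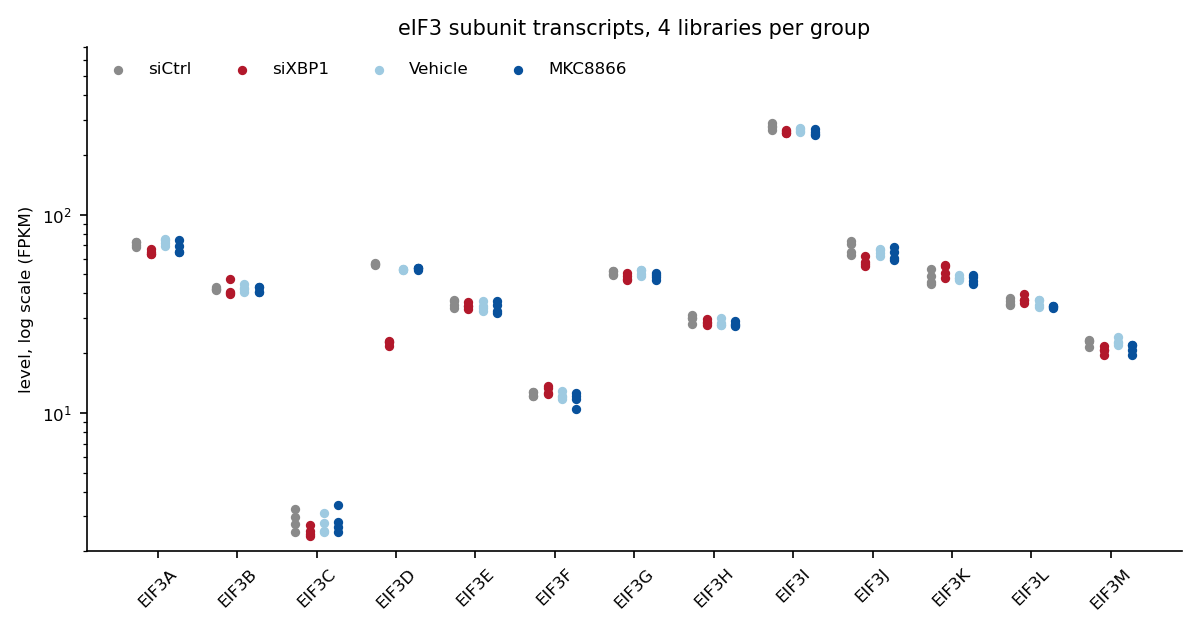
Level of the 13 eIF3 subunit mRNAs in each library (points, vertical axis on a log scale, FPKM), coloured by group, 4 libraries each. EIF3D drops from 55.7 to 57.1 in siCtrl to 21.9 to 22.9 in siXBP1, while the groups of the other subunits lie close together.

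Of the other eIF3 genes, EIF3A, EIF3J and EIF3M fell and 9 were not called. EIF3A, the largest scaffold subunit, ranged from 69.0 to 72.7 FPKM in siCtrl and from 63.3 to 66.7 in siXBP1 (log2 fold change −0.14, SE 0.0374, adjusted p = 0.00528). EIF3J, a loosely bound subunit at the mRNA entry channel, ranged from 62.6 to 73.2 and from 55.2 to 61.5 FPKM (log2 fold change −0.23, SE 0.0494, adjusted p = 7.00e-04). EIF3M was read at 23.1, 21.5, 23.4 and 22.9 FPKM in siCtrl and at 20.6, 20.7, 21.8 and 19.6 in siXBP1, and at 22.1, 24.0, 22.7 and 22.4 with Vehicle and 21.99, 21.87, 20.9 and 19.6 with MKC8866. Its knockdown groups overlapped and its MKC8866 libraries lay just below those of Vehicle. The log2 fold changes of EIF3M were −0.14 after knockdown (adjusted p = 0.0147) and −0.11 with MKC8866 (adjusted p = 0.195). With the replicate block EIF3M was called lower with MKC8866 (adjusted p = 0.00267). The knockdown call was lost without siCtrl replicate 3 or siXBP1 replicate 4 (adjusted p = 0.0575 and 0.0882). The uncalled subunits ran from −0.19 for EIF3C (adjusted p = 0.0517) to 0.12 for EIF3K (adjusted p = 0.0812). EIF3C was called lower without siCtrl replicate 3 or siXBP1 replicate 2 (adjusted p = 0.0128 and 0.0464) and in 2 other alternatives, EIF3I lower without siCtrl replicate 1 (0.0441) and in 1 other, and EIF3K higher without siCtrl replicate 4 or siXBP1 replicate 1 (0.0100045 and 0.0196) and in 2 others.

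Of the 12 genes of the eIF4 group, which bind the cap, unwind the leader or hold these activities back, 2 fell and 2 rose after knockdown. EIF4G1, the main scaffold between cap and ribosome, was read at 152, 159.8, 156 and 150.3 FPKM in siCtrl and at 140.3, 133, 134 and 136 in siXBP1. With Vehicle it was at 150.4, 137, 157 and 149.7 FPKM and with MKC8866 at 146, 135, 147 and 152. The knockdown groups did not overlap and the inhibitor groups did, and the log2 fold change after knockdown was −0.19 (SE 0.0374, adjusted p = 4.09e-04). EIF4B, a helicase cofactor whose copies held 49.5% of its own CPM, had −0.10 (adjusted p = 0.0445) with overlapping groups, and the call was lost without siCtrl replicate 1, 3 or 4, without siXBP1 replicate 1, 2 or 4 and in 3 other alternatives (adjusted p from 0.0539 to 0.162). EIF4G3, a paralogue of EIF4G1, rose from between 16.96 and 18.1 to between 18.2 and 20.3 FPKM, with a log2 fold change of 0.12 (adjusted p = 0.0253) that was lost without siXBP1 replicate 1 (0.10, adjusted p = 0.0725).

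EIF4A3 shares the helicase fold of eIF4A but serves in the exon junction complex rather than in scanning. It ranged from 11.4 to 12.9 FPKM in siCtrl and from 13.5 to 15.5 in siXBP1, and from 14.2 to 16.1 with Vehicle and 12.9 to 14.9 with MKC8866. Its log2 fold change after knockdown was 0.24 (SE 0.0532, adjusted p = 0.00102). The siXBP1 libraries of EIF4A3 lay within the range of the inhibitor experiment, and the siCtrl libraries lay just below that range. The cap-binding EIF4E and its repressors EIF4EBP1 and EIF4EBP2 were not called, with log2 fold changes of 0.11, 0.11 and 0.09 (adjusted p = 0.199, 0.0886 and 0.0973). They were called higher in some alternatives: EIF4E without siXBP1 replicate 1 (adjusted p = 0.0484), EIF4EBP1 without siCtrl replicate 2 or 4 and with 2 other filters (0.0289 to 0.049998), and EIF4EBP2 without siCtrl replicate 2 and with 1 other filter (0.0141 and 0.0475). Copies of EIF4E, mostly EIF4EP2, held 55.7 CPM against 50.3 for the gene, so its values carry a reserve. EIF4A1 was not called after knockdown either (−0.15, adjusted p = 0.413), and its log2 fold change with MKC8866 is given further on.

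For eIF5A, which eases peptide bonds between poorly reacting residues, and eIF6, which keeps free large subunits from joining, no gene was called after knockdown by edgeR with all libraries and the filter given, or by DESeq2, and 1 of 3 had an unadjusted p under 0.05. That gene was EIF5A, read at 80.9, 88.5, 88.9 and 86.5 FPKM in siCtrl and at 90.5, 89.0, 92.6 and 93.9 in siXBP1, with 92.4, 90.0, 82.9 and 85.1 with Vehicle and 86.03, 86.9, 83.4 and 80.6 with MKC8866. The siXBP1 libraries of EIF5A lay just above those of siCtrl, and the log2 fold change of 0.09 had an adjusted p of 0.106. It was called without siCtrl replicate 2 and with at least 10 counts asked of every library (adjusted p = 0.04996 and 0.0486).

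In the elongation group, none of the 4 counted elongation factors was called after knockdown by edgeR or DESeq2 (0 at an unadjusted p under 0.05), and EEF2K was called. It encodes the kinase that phosphorylates and thereby slows eEF2. EEF2K was read at 4.66, 5.21, 5.01 and 4.75 FPKM in siCtrl and at 4.17, 4.16, 3.87 and 4.43 in siXBP1, and at 4.84, 4.31, 4.90 and 4.71 with Vehicle and 4.51, 4.18, 4.47 and 4.82 with MKC8866. The siXBP1 libraries were below all siCtrl libraries (log2 fold change −0.24, SE 0.0541, adjusted p = 0.00126). Its target EEF2 ranged from 1196 to 1298 FPKM in siCtrl and from 1200.4 to 1251 in siXBP1, with a log2 fold change of −0.02 (adjusted p = 0.763). EEF1A1, EEF1B2 and EEF1D, which load tRNAs or recharge eEF1A with GTP, had log2 fold changes of −0.06, 0.03 and 0.07 (adjusted p = 0.378, 0.703 and 0.245). The values of EEF1A1 carry the reserve of its copy given above.

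The levels were also summed over the counted genes of each group, described without a test, and these sums do not measure whole complexes. The eIF4 sum lacks the main mRNA of EIF4A1 and includes the repressors and EIF4A3. The elongation sum lacks EEF1G and may lack fragments assigned to the copy of EEF1A1, and EEF2 makes up 67.4% of it in siCtrl. The sum for eIF2B was 67.5, 64.5, 64.5 and 64.4 FPKM in siCtrl and 57.9, 59.5, 59.9 and 58.4 in siXBP1, a log2 difference of −0.15. For eIF3 it was 748, 744, 747 and 779 FPKM in siCtrl and 671, 691, 696 and 686 in siXBP1, a log2 difference of −0.14. Much of this was EIF3D, and the other 12 subunits summed to 691, 688, 690.4 and 721 FPKM in siCtrl and 648, 669, 673 and 665 in siXBP1. The factors of start codon selection summed to 274, 262, 269 and 275 FPKM in siCtrl and 283, 294, 302 and 293 in siXBP1, a log2 difference of 0.12 that follows EIF1, which makes up 60.4% of this sum. In these 3 sums the groups did not overlap, whereas they did for eIF2, eIF4, eIF5A with eIF6, and elongation, whose log2 differences lay between −0.04 and 0.03.

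**Figure D5:**
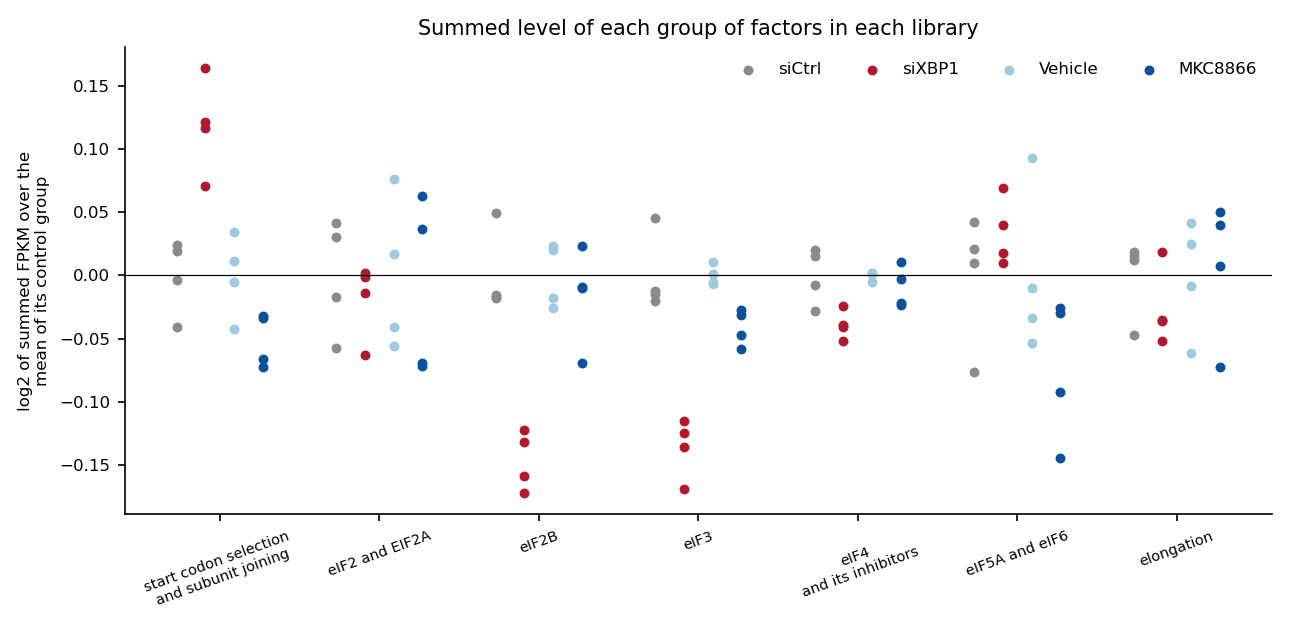
Log2 of the summed FPKM of each group of factors in each library over the mean of its control group (vertical axis), siCtrl for siXBP1 and Vehicle for MKC8866, 4 points per group. The siXBP1 points for eIF2B and eIF3 lie below 0 and those for start codon selection above 0, apart from their siCtrl points.

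With MKC8866, 1 of the 47 factors was called lower and 0 were called higher by edgeR and by DESeq2, and 5 had an unadjusted p under 0.05. Of all 21045 genes tested, 4.47% were called, 3.11% as lower and 1.36% as higher, and among those of at least 5 CPM 7.21% were called, so the count for the factors is near the background. The number of all genes called higher was 287 and moved to 484 without MKC8866 replicate 2, and to 180, 184, 188 and 191 without MKC8866 replicate 1, MKC8866 replicate 3, Vehicle replicate 3 and MKC8866 replicate 4. The median log2 fold change of the factors was −0.03, against 0.00 over all genes, and 37 of 47 were negative, against 49.1% of all genes. In 3 factors (EIF3M, EIF4A1 and EEF1D) the 4 MKC8866 libraries lay below the 4 Vehicle libraries and in 0 they lay above, while 5.29% and 3.98% of all genes did so.

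The factor that was called was EIF4A1. Its level was 1.22, 1.19, 1.32 and 1.18 FPKM with Vehicle and at 0.769, 0.819, 0.857 and 0.821 with MKC8866, and at 1.26, 1.11, 1.21 and 0.805 in siCtrl and 1.03, 1.01, 0.835 and 1.09 in siXBP1. The inhibitor groups were well apart and the knockdown groups overlapped, siCtrl replicate 4 being the lowest of its group. The log2 fold change with MKC8866 was −0.58 (SE 0.0921, adjusted p = 1.50e-04, and 4.92e-06 with the replicate block), and it was called in each of the 14 alternatives. As described above, its count holds fragments outside the main EIF4A1 mRNA, and does not measure that mRNA. EIF4A1P10, the most counted copy of the gene and looked at after its values were seen, held 109 CPM against 5.48 for EIF4A1 and had a log2 fold change of −0.13 (adjusted p = 0.284, with the block 0.00170).

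EEF1D, the exchange subunit of the eEF1 complex, was read at 13.6, 13.03, 13.2 and 13.1 FPKM with Vehicle and at 11.9, 12.6, 12.7 and 12.05 with MKC8866, and at 14.1, 13.04, 13.9 and 12.4 in siCtrl and 13.3, 14.8, 14.2 and 14.1 in siXBP1. Only the inhibitor groups were apart, by a small margin, and the log2 fold change of −0.10 had an adjusted p of 0.204 (with the replicate block 0.0116). EIF5A2 was read at 1.32, 1.69, 1.64 and 1.57 FPKM with Vehicle and at 1.63, 1.92, 1.81 and 1.77 with MKC8866, and at 1.36, 1.45, 1.56 and 1.79 in siCtrl and 1.76, 1.78, 1.59 and 1.61 in siXBP1. Its groups overlapped in both experiments, and the log2 fold change of 0.20 with MKC8866 had an adjusted p of 0.248. For the members with the smallest p in their group, EIF1, EIF2A and EIF2B5 had log2 fold changes of −0.06, −0.05 and −0.04 with MKC8866 (adjusted p = 0.528, 0.646 and 0.733).

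In the inhibitor experiment, samples with the same replicate number varied together, and a fit with the replicate number as a block called 8 of the 47 factors lower and 0 higher. With this block 13% of all genes were called, 7.05% as lower and 6.0% as higher. The 8 were EIF4A1, EIF3M (log2 fold change −0.11, adjusted p = 0.00267), EEF1B2 (−0.10, 0.00453), EIF4H (−0.08, 0.0107), EEF1D (−0.10, 0.0116), EIF3A (−0.08, 0.0138), EEF1A1 (−0.06, 0.0183) and EIF6 (−0.10, 0.0196). Apart from EIF4A1 the largest log2 fold change was −0.11. All 8 lay in the eIF3, eIF4, eIF5A with eIF6, and elongation groups. These groups hold 13, 12, 3 and 5 of the 47 factors tested, which is most of them, and the grouping was not tested. The summed level of eIF3 was 733, 732, 741 and 736 FPKM with Vehicle and 706, 712, 719.7 and 721 with MKC8866, a log2 difference of −0.04 that became 0.00 when the levels were scaled to TPM without TMM.

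The 11 genes with an oligopyrimidine start were followed separately. After knockdown 4 of them were lower and 0 higher (EIF3D, EIF2A, EIF3M and EIF4B), with a median log2 fold change of −0.06. Of all 874 tested genes with such a start 209 were lower and 168 higher, together 43.1%, and their median was 0.01. The 28 factors with a start site in the table but none of this form had 10 lower and 5 higher, with a median of −0.08. With MKC8866 0 of the 11 were called without the block and 3 with it (EIF3M, EEF1B2 and EEF1A1, all lower), and their median was −0.02. The 28 factors without this form had 1 lower, or 3 lower with the block, and a median of −0.04. Of all 879 genes with such a start, 11.1% were lower with the block, and of all 12661 genes with a start site 8.56% were.

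The difference between the responses to siXBP1 and to MKC8866 was tested in a fit of all 16 libraries, in which the kind of inhibition and the experiment cannot be told apart, since controls and pretreatment times were separate. It passed the threshold for 10 factors, 4 with a lower and 6 with a higher response after knockdown, while 23.3% of all genes passed, 12.7% as lower and 10.6% as higher, and 34.6% of those of at least 5 CPM, so this share too is near the background. EIF3D differed by −1.34 (SE 0.0473, adjusted p = 6.70e-19), EIF5 by −0.29 (adjusted p = 4.71e-05), EIF1 by 0.30 (6.16e-05), EIF1AX by 0.37 (6.28e-05), EIF4A3 by 0.33 (0.00201) and EIF1B by 0.32 (0.00409). These 6 were kept in all 20 alternatives. Of the 5 start codon factors 4 were among them, and EIF5B had −0.14 (adjusted p = 0.131, with the block 0.0353). With the replicate block 10 factors were lower and 9 higher, as were 3001 and 2641 of all 20357 genes.

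The other 4 differences lay close to the threshold, and each was lost with any of 10 to 13 libraries left out, while its sign stayed. EIF2B2 (−0.18, adjusted p = 0.0431) was lost without siCtrl replicate 2 or 4, siXBP1 replicate 2 or 3, Vehicle replicate 2, 3 or 4, or MKC8866 replicate 1, 3 or 4 (adjusted p from 0.0540 to 0.0975, log2 difference from −0.18 to −0.15). EIF3J (−0.20, 0.0452) was lost without siCtrl replicate 1 or 4, siXBP1 replicate 1, 2 or 4, Vehicle replicate 1, 3 or 4, or MKC8866 replicate 2 or 4 (0.0553 to 0.128, log2 difference from −0.20 to −0.15). EEF1D (0.18, 0.0346) was lost without siCtrl replicate 2 or 4, siXBP1 replicate 2, 3 or 4, Vehicle replicate 1, 3 or 4, or MKC8866 replicate 1 or 4 (0.0507 to 0.0953, log2 difference from 0.14 to 0.18). EIF4A1 (0.44, 0.0474) was lost without siCtrl replicate 2 or 4, siXBP1 replicate 1, 2 or 4, any of the Vehicle libraries or any of the MKC8866 libraries (0.0528 to 0.112, log2 difference from 0.31 to 0.46). The count of 4 lower responses was 2 without siXBP1 replicate 2, Vehicle replicate 4 or MKC8866 replicate 4.

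Paralogues and inhibitors were also compared as ratios of levels within each library, 9 ratios in 2 comparisons, with a two-sided exact permutation test whose smallest p is 0.0286. After adjustment over all 18 a ratio could pass only if at least 11 reached that smallest p, so the test could hardly call any and the ratios are given as a description. The groups did not overlap for EIF4G3 over EIF4G1 (log2 difference 0.31), EIF4G2 over EIF4G1 (0.16) and EIF4E2 over EIF4E (−0.17) after knockdown, and for EIF4A2 over EIF4A1 (0.57) with MKC8866. Since the EIF4A1 count does not measure its main mRNA, the last ratio does not compare the levels of these paralogues. EIF4G2, a shorter relative of EIF4G1 without the eIF4E site, was 1.36 times EIF4G1 by FPKM in siCtrl and 1.52 times in siXBP1. The size of this ratio depends on the length used. Over the main transcripts the siCtrl levels would be 481 FPKM for EIF4G2 and 236 for EIF4G1. The ratio of the repressor EIF4EBP1 to EIF4E differed by 0.01 after knockdown and by 0.04 with MKC8866 on the log2 scale.

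Genes around the factors were taken from 5 lists, whose counts are to be read beside the shares of all genes, 34.8% after knockdown (50.9% of those of at least 5 CPM), 4.47% with MKC8866 and 13% with the block. Of 9 genes of eIF2alpha phosphorylation, 7 that set it and 2 that act downstream (ATF4 and DDIT3), 4 were lower and 1 higher after knockdown and 3 were lower with MKC8866 (4 with the block). EIF2AK3, which encodes PERK, was read at 15.6, 14.3, 15.4 and 14.9 FPKM in siCtrl and 8.92, 8.50, 9.68 and 8.50 in siXBP1, and at 15.5, 15.9, 15.8 and 15.4 with Vehicle and 9.36, 9.06, 9.35 and 9.32 with MKC8866. Both treatments left it apart from their controls, with log2 fold changes of −0.76 (adjusted p = 4.97e-11) and −0.75 (adjusted p = 6.94e-12), and the test of their difference gave an adjusted p of 0.979. EIF2AK2, the kinase PKR that senses double-stranded RNA, fell after knockdown from between 6.12 and 6.38 to between 3.69 and 3.86 FPKM (log2 fold change −0.72, adjusted p = 1.43e-11) and had 0.04 with MKC8866 (adjusted p = 0.835). DNAJC3, a co-chaperone first described as an inhibitor of PKR, had −0.50 and −0.49, and ATF4, the transcription factor whose translation rises when eIF2alpha is phosphorylated, had −0.05 (adjusted p = 0.382) and −0.17 (adjusted p = 0.00715), without a called difference between the responses (adjusted p = 0.103). DDIT3, which encodes the stress factor CHOP, belonged to the list from the start but was picked for naming after its values were seen, and it rose after knockdown (0.46, adjusted p = 6.79e-09) and had −0.08 with MKC8866 (adjusted p = 0.325, with the block 0.0159), a difference of 0.55 (adjusted p = 1.24e-08).

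Of 22 other initiation factors and cofactors, 2 were lower and 7 higher after knockdown, and 2 were lower with MKC8866 (4 lower and 1 higher with the block), and the share after knockdown lies between the 2 backgrounds. PABPC4, a cytosolic poly(A)-binding protein, was read at 10.1, 9.81, 10.1 and 9.26 FPKM in siCtrl and 20.1, 19.6, 20.3 and 20.3 in siXBP1, against 16.6, 16.1, 17.5 and 17.1 with Vehicle and 17.6, 17.5, 17.6 and 16.6 with MKC8866. All siXBP1 libraries lay above all others and all siCtrl libraries lay below all others, whereas the inhibitor groups overlapped. The log2 fold changes were 1.03 after knockdown (SE 0.0422, adjusted p = 1.27e-14) and 0.04 with MKC8866 (adjusted p = 0.704). DHX29, a helicase for structured leaders, fell after knockdown (log2 fold change −0.58, adjusted p = 7.98e-10), and PDCD4, an inhibitor of eIF4A, rose (0.44, adjusted p = 5.10e-08). EIF1AD, a relative of eIF1A, fell in both comparisons (−0.37 after knockdown, adjusted p = 4.52e-05, and −0.45 with MKC8866, adjusted p = 6.62e-06), and the recycling factor ABCE1 fell with MKC8866 (−0.20, adjusted p = 0.0386) and was not called after knockdown (0.05, adjusted p = 0.496).

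Of 19 other elongation, termination and factor-modifying genes, 4 were lower and 5 higher after knockdown and 2 lower with MKC8866 (3 with the block), again a share after knockdown between the 2 backgrounds. PELO and HBS1L, partners that rescue stalled ribosomes, fell in both, with log2 fold changes of −0.36 and −0.27 after knockdown (adjusted p = 3.78e-07 and 2.07e-04) and −0.14 and −0.29 with MKC8866 (adjusted p = 0.0357 and 8.77e-05). DPH2, an enzyme that helps make the diphthamide of eEF2, had −0.32 after knockdown (adjusted p = 2.08e-05). Of 12 genes of the mTORC1 kinase complex and its regulators, 4 were lower and 1 higher after knockdown, with DEPTOR at −0.41, SESN2 at 0.34 and TSC1 at −0.24 (adjusted p = 1.74e-04, 6.85e-07 and 7.05e-04). DEPTOR had 431 to 517 fragments in siCtrl, 290 to 396 in siXBP1, 316 to 390 with Vehicle and 320 to 401 with MKC8866. TSC1 had 2701 to 3219, 2124 to 2492, 1982 to 2245 and 2008 to 2408 in the same order. For both genes siCtrl was the group that stood apart, while for SESN2 the siXBP1 counts were the highest. With MKC8866 0 of the 12 were called by edgeR, 1 having an unadjusted p under 0.05 and 1 being higher with the block. Of 84 tested genes of cytosolic ribosomal proteins by symbol, 5 were lower and 10 higher after knockdown, and 5 were lower with MKC8866, or 50 with the block, when 7.05% of all genes were lower. Their median log2 fold changes were small, 0.03 and −0.09, and the difference between these shares and those of all genes was not tested. Among the genes called without the block, the largest changes after knockdown were in RPS7 (−0.78, adjusted p = 1.24e-11), RPL36AL (−0.62, 9.71e-11) and RPL7L1 (0.60, 3.30e-10). RPL7L1 had 4807 to 5698 fragments in siCtrl and 6254 to 8457 across the libraries of the other groups. For RPS7 and RPL36AL the siXBP1 counts were the lowest of all groups. With MKC8866 the largest changes were in RPL36AL (−0.34, adjusted p = 5.03e-06), RPL9 (−0.25, 0.0204) and RPL31 (−0.21, 0.0138). RPS26 was called with the block, with a log2 fold change of −0.247 (adjusted p = 0.0280).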

How the data were processed

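RNA-seq counts of 16 LNCaP libraries were analysed. The authors aligned paired-end reads to GRCh38 with STAR 2.5.2a, and the deposited values are counts of fragments per gene from featureCounts 1.5.0 on Ensembl release 85, not normalized. Strand was not used, and fragments with several alignments or overlapping 2 genes were left out. The deposited gene length (other: the summed length of merged exons, per the file headers) gave the FPKM. Each treatment was tested against its control in R 4.3.3 with edgeR 4.0.16 (TMM, quasi-likelihood F test, two-sided), keeping genes for which both groups had a library with over 5 counts, at a Benjamini-Hochberg adjusted p under 0.05 over all genes tested. Replicates varied by 5.40% (knockdown) and 4.97% (inhibitor) beyond counting error.

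The factors, their complexes and the related lists were chosen with earlier results of these data known. Values in every library are given for factors called with a log2 fold change of at least 0.25 in size and, in each complex, for the one with the smallest p in each comparison; from each related list, up to 3 called genes per comparison with the largest change are named. The lists were eIF2alpha phosphorylation, other initiation factors, other elongation, termination and factor-modifying genes, mTORC1 and ribosomal proteins.

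Deviations of libraries from their group mean were correlated between libraries with the same replicate number. In the inhibitor experiment all 4 correlations were over 0.1 (0.104 to 0.378, mean 0.229, across 15049 genes), so the numbers were taken to pair the samples and values with the number as a block are given. Differently numbered pairs had a mean of −0.0763, but 2 of them, 0.153 (MKC8866 1 with Vehicle 3) and 0.136 (MKC8866 3 with Vehicle 1), exceeded the lowest, and the labels do not say that a number names the same culture. In the knockdown experiment they ran from 0.00202 to 0.0702 (mean 0.0416, 15044 genes). The sample labels do not state that replicates came from separate cultures, so the p-values measure the spread between these samples, which may be partly technical.

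Alternatives were DESeq2 1.42.0, edgeR with RLE scaling, the replicate block, 1 fit for all 16 libraries, a filter of 10 counts everywhere or none, TPM without TMM for the sums, and each library left out in turn. The fits were tested on simulated data with the same spread for all genes and no paired replicates, which does not test the effect of pairing. Tables and figures outside R used pandas 2.3.3 and matplotlib 3.10.9.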

Additional observations from a re-analysis of the deposited data

Results flagged for a closer look

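In 5 of 188 pairs of a factor and a group, 1 of the 4 libraries lay far from the other 3. Chance alone sets such a library apart in about 1 in 20 groups, so this number is no pattern. EIF1 was at 156 FPKM in siCtrl replicate 2, with the others at 164.5 or above. EIF2S1 was at 38.2 FPKM in siXBP1 replicate 1, and without that library its log2 fold change after knockdown was −0.09 (adjusted p = 0.203). EIF2B3 was at 8.42 FPKM in MKC8866 replicate 2, EIF3B at 47.3 FPKM in siXBP1 replicate 3 and EIF4A3 at 16.1 FPKM in Vehicle replicate 2. Among the sums, eIF2B was at 67.5 FPKM in siCtrl replicate 1, eIF3 at 779 FPKM in siCtrl replicate 4 and the elongation factors at 1793 FPKM in siCtrl replicate 1. The mitochondrial share of fragments was lowest in siCtrl replicate 4, 2.76% against 4.13% to 5.04% in the other siCtrl libraries, and its part in these values was not tested.

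For 10 factors the log2 fold change after siXBP1 differed from that with MKC8866 by a test of the difference itself. The difference was −1.34 for EIF3D, 0.44 for EIF4A1, 0.37 for EIF1AX, 0.33 for EIF4A3, 0.32 for EIF1B, 0.30 for EIF1, −0.29 for EIF5, −0.20 for EIF3J, −0.18 for EIF2B2 and 0.18 for EEF1D. The kind of inhibition and the experiment cannot be told apart in this test.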

How the results depend on the processing

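No call turned into a call in the other direction in any alternative. After knockdown, the number of factors called lower was 10 to 14 and higher 6 to 9 when 1 library was left out, and in the fit with the replicate number as a block, which is given here only, it was 16 and 7. With MKC8866, leaving out 1 library gave 527 to 833 genes called lower and 180 to 484 called higher, and 1 factor lower in each case. The block by replicate number gave 1484 genes lower and 1262 higher, 8 factors lower, and in the difference between the responses 10 factors lower and 9 higher. In that difference, leaving out 1 library gave 2 to 5 factors lower and 4 to 6 higher. Scaled to TPM without TMM, the summed levels with MKC8866 gave log2 differences of −0.00755 for start codon selection, 0.0274 for eIF2B, 0.00242 for eIF3 and 0.0343 for eIF4, and the cause was not tested. Leaving out libraries from the sums was added after seeing the data and gave log2 differences after knockdown of 0.10 to 0.13 for start codon selection, −0.15 to −0.13 for eIF2B and −0.14 to −0.12 for eIF3.

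Apart from EEF1G, the fewest fragments per library were 123 to 214 for EIF4A1 and 217 to 342 for EIF5A2, and the part of depth in the calls was not tested. Fragments that overlap 2 genes or align to several places were left out, and fragments of a factor and of its copies may be assigned to either, which bears on EEF1G, EIF4A1, EIF3L, EEF1A1, EIF4E, EIF2S2, EIF4B and EIF3C among others. By symbol, 29 of the factors have such copies, 154 in all. Protein levels, phosphorylation and translation were not measured.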
